A study of Mus musculus with 6 samples.

Results

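The processed pseudogenes described here are the rows of the FPKM table that the annotation types as processed_pseudogene and that had an FPKM (fragments scaled to gene length and to library depth) of at least 1 in at least 2 of 6 libraries. This rule took 1687 of 8995 processed pseudogenes in a table of 53023 genes, so its members were chosen by their measured FPKM, with no reference to group. The member nearest the minimum had a second-highest FPKM of 1.0008, and the processed pseudogene just under it had 0.9992. The libraries were made from two-cell embryos of ICR mice collected at 28 h post-insemination (hpi), with 5 embryos per library and 2 libraries in each of 3 groups. Non-injection embryos received no mRNA. PIASy-WT embryos were injected between 1.5 and 3 hpi with 100 ng/µl of mRNA for wild-type PIASy, a SUMO E3 ligase encoded by Pias4, and PIASy-Mut embryos with mRNA carrying the C335F change in the RING finger. Embryos that fluoresced at 9 hpi after injection were kept, and the non-injection group had no control injection. Embryos were pooled within a library and nothing ties the libraries to separate litters, so P-values measure the spread between these libraries.

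A processed pseudogene is a copy of a spliced messenger RNA that was reverse transcribed and inserted elsewhere in the genome. Such copies usually lack introns and the promoter of the gene they came from, which is called the parent here. Housekeeping genes with abundant messages in the germ line, such as those of ribosomal proteins, have many copies. A copy that lies near or within an active transcription unit may itself be transcribed. In short-read data a copy that is nearly identical to its parent also shares reads with it, and only reads that differ from every other place can be counted as unique.

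The lengths and structures of the 1687 rows had these features. Their median annotated length was 520 bases, against 3733 bases for the protein-coding genes that passed the same filter, and 1569 had a single exon. Of 1655 members with a sequence in the GENCODE M21 transcripts of the same build, GRCm38 (mm10), 1521 matched the transcript of a protein-coding gene at an identity of at least 80% over at least 100 bases. Their median identity to that parent was 95.5%. The median member shared 24.6% of its 50-base sequences with another gene, 288 shared none and 71 shared all of them. The parents numbered 763 genes, of which 236 had more than 1 member. Hmgb1, which encodes a chromatin protein, had 62 copies, the histone gene H3f3a 34, the ribosomal protein gene Rpl21 29 and the glycolytic gene Gapdh 20.

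Sequences are shown for 2 families because the results turn on them, and they show where copies differ from their parents. Each stretch shown is the gap-free one with most differences from the parent, summed over the copies. Differences are therefore denser in it than over the whole aligned sequence. Each line gives 90 bases of the coding sequence, or of the copy aligned to it, from GENCODE M21 transcripts, 5′ to 3′ on the strand of the gene, and capitals mark bases that differ from the first line. The first family copies Map1lc3b (chr8:121590361-121598760, plus strand), which encodes the autophagy protein LC3B, and the window is bases 80 to 169 of its coding sequence. It lies at chr9:18427622-18427711 (plus strand) in Gm5612, at chr5:147409061-147409150 (plus strand) in Gm6054 and at chr14:48079584-48079673 (minus strand) in Gm6055.
Map1lc3b: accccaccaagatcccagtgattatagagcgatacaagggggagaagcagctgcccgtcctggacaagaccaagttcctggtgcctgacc
Gm5612: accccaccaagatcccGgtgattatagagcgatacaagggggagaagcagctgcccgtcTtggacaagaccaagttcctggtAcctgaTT
Gm6054: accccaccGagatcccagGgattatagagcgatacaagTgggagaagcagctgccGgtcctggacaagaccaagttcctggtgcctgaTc
Gm6055: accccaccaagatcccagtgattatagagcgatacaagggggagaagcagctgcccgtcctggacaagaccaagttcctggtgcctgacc
Gm5612 differed from the coding sequence of Map1lc3b at 13 of 375 bases, Gm6054 at 7 and Gm6055 at 1. Gm6055 shared 86.3% of its 50-base sequences with other genes, while Gm5612 shared 12.9%. How many of their reads could be assigned to them alone was not measured.

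The second family lies on chromosome 1 and resembles 4931428L18Rik (chr1:31135226-31222684, minus strand), a protein-coding gene similar to Alyref, which encodes an mRNA export factor. The window is bases 443 to 532 of its coding sequence and lies on the plus strand at chr1:31267765-31267854 in Gm4850, chr1:31275332-31275421 in Gm28645 and chr1:31287387-31287476 in Gm6489.
4931428L18Rik: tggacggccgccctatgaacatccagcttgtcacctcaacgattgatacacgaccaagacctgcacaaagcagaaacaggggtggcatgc
Gm4850: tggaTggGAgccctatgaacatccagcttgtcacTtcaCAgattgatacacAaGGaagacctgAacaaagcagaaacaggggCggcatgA
Gm28645: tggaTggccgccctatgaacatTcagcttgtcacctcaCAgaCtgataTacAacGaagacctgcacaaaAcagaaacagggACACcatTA
Gm6489: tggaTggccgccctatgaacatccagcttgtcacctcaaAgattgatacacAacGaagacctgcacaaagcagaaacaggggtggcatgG
Gm4850 and Gm28645 were 91.0% and 90.2% identical to 4931428L18Rik over their aligned coding sequence and had 32 differences from it in common. Gm6489 was 97.4% identical to 4931428L18Rik. To Alyref itself the identity was 83.1% for Gm4850, 82.0% for Gm28645 and 84.0% for Gm6489. The closest match of all 3 was AC153137.1, which M21 annotates as a protein-coding retrogene at the place of Gm5698.

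The libraries contained 1363928 and 1130853 fragments on genes in the non-injection group, 1032206 and 871663 in those of PIASy-Mut, and 1325411 and 1149421 in those of PIASy-WT. Fragments are given as recovered, without scaling for depth. Pias4 had 15 fragments in each non-injection library and between 1967 and 3288 in the injected ones. The 8 genes listed as markers of the two-cell embryo had a summed CPM (fragments scaled to a common library depth) of 2075 to 2217 without injection, 2247 to 2364 with PIASy-Mut and 913 to 1287 with PIASy-WT. The 9 genes listed as markers of the oocyte had a summed CPM of 4062 to 4499, 4186 to 6545 and 7835 to 8159 in the same order. Against non-injection, limma called 1 of the 7 two-cell genes tested lower, Obox3, with 4 lower at an unadjusted P under 0.05 and 1 called by voom. Of the 9 oocyte genes limma and voom called 0 in either direction, with 3 higher and 1 lower at an unadjusted P under 0.05, so the sums do not describe each gene of a list. Of 8 cumulus and granulosa cell markers, 2 had over 3 fragments in some library, Amh, Foxl2 and Inha had 0, and the summed CPM was between 3.67 and 16.1. The part of these marker levels in the results below was not tested. In pooled embryos, fewer cells of a type and less RNA per cell cannot be told apart.

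Processed pseudogenes held 1.57% and 1.48% of fragments in the non-injection libraries, 1.83% and 1.34% after injection of PIASy-Mut, and 0.817% and 0.780% after PIASy-WT. Both PIASy-WT libraries were below the other 4. The mean share was 1.53% ± 0.0651 (SD, n = 2) without injection, 1.59% ± 0.345 with PIASy-Mut and 0.798% ± 0.0256 with PIASy-WT, so PIASy-WT had 0.522 times the share of non-injection and 0.504 times that of PIASy-Mut. The share was given as values, without a test. An exact two-sided permutation test of 2 against 2 libraries could not have given a P below 0.33. PIASy-Mut and non-injection differed by less than the spread between the PIASy-Mut libraries. Protein-coding genes held between 93.4% and 94.2% of fragments in every library. Unprocessed pseudogenes, which arise by duplication of a gene, also had a lower share in PIASy-WT, with 0.466% and 0.408% without injection, 0.483% and 0.428% with PIASy-Mut and 0.258% and 0.241% with PIASy-WT. Long intergenic RNAs held 2.10% and 2.13%, 1.94% and 2.65%, and 3.19% and 3.40% in the same order. The 263 rows typed as transcribed processed pseudogenes, which the rule leaves out, held 0.178% and 0.182% of fragments in the non-injection libraries, 0.191% and 0.195% in those of PIASy-Mut, and 0.215% and 0.211% in those of PIASy-WT.

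The lower share in PIASy-WT came largely from a few rows. The 6 processed pseudogenes with most fragments, Gm5612, Gm12617, Gm5117, Gm4850, Gm28645 and Gm11517, held 43.9% and 41.2% of all processed pseudogene fragments in the non-injection libraries, 45.7% and 35.0% in those of PIASy-Mut, and 15.0% and 9.76% in those of PIASy-WT. Without these 6, the remaining rows held 0.882% and 0.872% of the non-injection libraries, 0.993% and 0.873% of those of PIASy-Mut, and 0.694% and 0.704% of those of PIASy-WT. The PIASy-WT libraries remained below the other 4, at 0.797 times the non-injection share. The omission of these 6 was chosen after their values were seen.

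**Figure D1:**
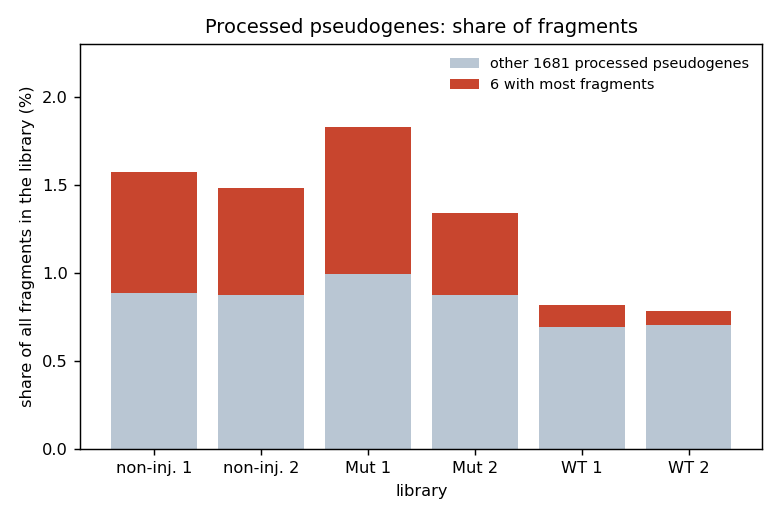
Share of all fragments of a library (y axis, %) held by processed pseudogenes in each of 6 libraries (x axis), with the 6 rows with most fragments in red and the other 1681 in grey. The red part went from 0.692% and 0.611% in the non-injection libraries to 0.122% and 0.0761% in PIASy-WT, and the grey part from 0.882% and 0.872% to 0.694% and 0.704%.

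Most of the 1687 rows rested on very few fragments. The median member had a mean of 1.17 fragments per library, and 927 members never had more than 3 fragments in any library, which is treated here as the limit of detection. A single fragment on a gene of the median length was enough to pass the FPKM minimum. In total 527 members passed the minimum in exactly 2 libraries, of which 47 passed through both non-injection libraries, 35 through both PIASy-Mut libraries and 33 through both PIASy-WT libraries only. A mean of at least 10 fragments was reached by 165 members and a mean of at least 100 by 18. Further, 5754 processed pseudogenes of the table had 0 fragments in all 6 libraries.

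Processed pseudogenes were called lower in PIASy-WT about as often as other genes when every row was counted. A gene was called when its adjusted P was 0.05 or less and its log2 fold change was 2 or more in size. Against non-injection, 66 members (3.91%) were lower and 14 (0.830%) higher, compared with 3.81% and 0.602% of the 16100 genes tested. Against PIASy-Mut, 67 members (3.97%) were lower and 15 (0.889%) higher, compared with 4.06% and 0.516% of genes tested. In both, 43 members (2.55%) were lower and 9 (0.533%) higher, compared with 3.02% and 0.304% of genes tested. The 2 comparisons share the PIASy-WT libraries. Neither PIASy-WT library exceeded 3 fragments for 41 of the 66 lower members, and for 16 of these neither non-injection library did. Of the 14 higher members, 13 were at this limit in both libraries without injection. Between PIASy-Mut and non-injection, limma called 0 members in either direction, with 111 lower and 71 higher at an unadjusted P under 0.05. Voom on recovered fragments, which only 227 members entered, also called 0. Of all genes tested, 0.0% were called lower there and 0.00621% higher (0.0113% at a mean of at least 10 fragments), and 2.09% and 2.37% had an unadjusted P under 0.05 in these directions. When 1 non-injection or 1 PIASy-WT library was left out, 0 members were called in either comparison of PIASy-WT, with 163 to 249 members lower at an unadjusted P under 0.05.

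Among the 165 members with a mean of at least 10 fragments the shares were larger. Against non-injection 31 (18.8%) were lower and 1 (0.606%) higher, compared with 6.04% and 0.26% of the 8844 genes at this level. Against PIASy-Mut 33 (20%) were lower and 1 (0.606%) higher, compared with 6.4% and 0.136%. Both PIASy-WT libraries were below the other 4 for 81 members (49.1%, against 35.5% of genes at this level) and above them for 36 (21.8%, against 24.1%). The median log2 fold change of these 165 was −0.83 against non-injection, −0.82 against PIASy-Mut and 0.02 between PIASy-Mut and non-injection, beside −0.07, −0.09 and 0.04 for all genes at this level. These members were short, with a median length of 796 bases against 4061 and a median FPKM of 28.3 against 10.2, and the pseudocount of 1 shrinks a fold change less at a higher FPKM. With voom, which weights counts and adds no FPKM pseudocount, 36 of the 165 (21.8%) were lower than non-injection, compared with 10% of genes at this level. No test of the members as a list was made.

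**Figure D2:**
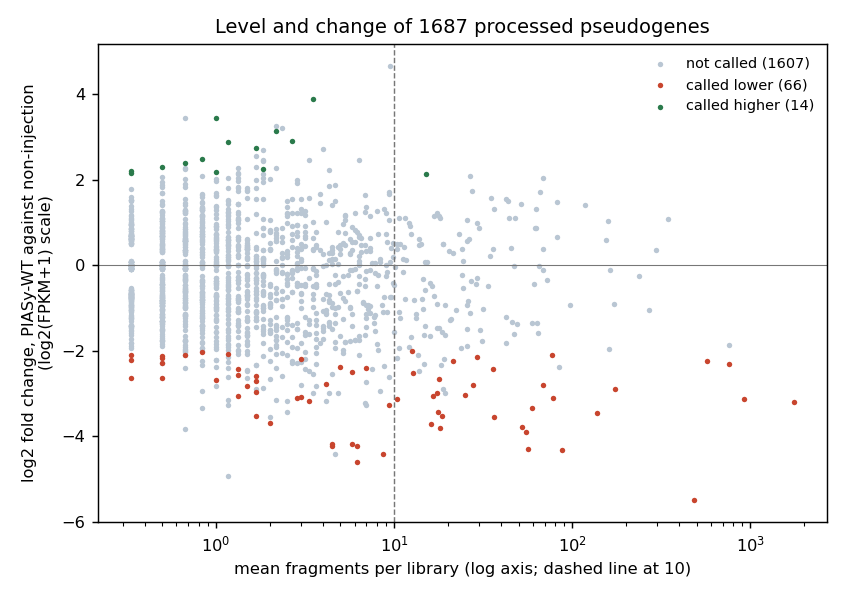
Log2 fold change of PIASy-WT against non-injection on the log2(FPKM + 1) scale (y axis) for 1687 processed pseudogenes by their mean fragments per library (x axis, log scale). Red points are the 66 called lower, green points the 14 called higher, and 31 red points and 1 green point lie at a mean of at least 10 fragments.

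Gm5612, the copy of Map1lc3b on chromosome 9 (chr9:18427543-18427917, plus strand), had the most fragments of all. It had 3452 and 2176 fragments in the non-injection libraries, 3071 and 1264 in those of PIASy-Mut, and 435 and 205 in those of PIASy-WT. The PIASy-WT libraries were below all 4 others, and the log2 fold change was −3.19 (SE 0.48, adjusted P = 0.0293) against non-injection and −3.10 (adjusted P = 0.0285) against PIASy-Mut. At a mean FPKM of 4172, only 9 protein-coding genes had a higher mean FPKM. This rank depends on its short length of 375 bases, since FPKM is scaled to length. No rank by fragments was made against protein-coding genes. Its longest open reading frame, counted from a start codon to a stop codon or the annotated end, covered 100% of its length.

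Map1lc3b itself fell as well, with 870, 725, 821, 439, 261 and 135 fragments in non-injection, PIASy-Mut and PIASy-WT in turn (log2 fold change −2.02, adjusted P = 0.034 against non-injection). Its length in the table covers all annotated exons, so its FPKM is low for its fragments. The FPKM of Gm5612 was 57.7 to 79.5 times that of Map1lc3b in the other 4 libraries and 33.4 and 30.4 times in PIASy-WT. Relative to its parent the copy was lower in both PIASy-WT libraries than in the other 4. Among the other copies of Map1lc3b, Gm6055 had 26, 28, 27, 20, 4 and 1 fragments (log2 fold change −3.42, adjusted P = 0.029). Gm6054 had 39, 49, 38, 29, 13 and 7 (−2.13, adjusted P = 0.0311), and its ratio to Map1lc3b was 0.891 to 1.34 in the other groups and 0.991 and 1.03 in PIASy-WT. All 5 copies of Map1lc3b together held 0.259% and 0.200% of fragments in the non-injection libraries, 0.305% and 0.151% in those of PIASy-Mut, and 0.0341% and 0.0187% in those of PIASy-WT.

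A pair of rows on chromosome 11 also had many fragments. Gm12617 (chr11:60692695-60693075, minus strand) had 1639 and 1245 fragments in the non-injection libraries, 1559 and 747 in those of PIASy-Mut, and 252 and 104 in those of PIASy-WT (log2 fold change −3.13, SE 0.45, adjusted P = 0.0292 against non-injection). Gm11517 (chr11:96795439-96795825, minus strand) had 875 and 688, 1005 and 313, and 23 and 12 fragments in the same order. In both rows PIASy-WT was below the other 4 libraries, while non-injection and PIASy-Mut overlapped. Gm11517 had the most negative fold change of the members with a mean of at least 10 fragments, −5.50 (SE 0.51, adjusted P = 0.0224) against non-injection and −5.42 (adjusted P = 0.0219) against PIASy-Mut. They shared 3.01% and 3.25% of their 50-base sequences with other genes.

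The pair on chromosome 1 had 1301 and 1051 fragments in the non-injection libraries, 1014 and 697 in those of PIASy-Mut, and 272 and 204 in those of PIASy-WT for Gm4850, and 887 and 878, 795 and 476, and 217 and 157 for Gm28645. Neither pair of PIASy-WT values reached the other 4. The log2 fold change against non-injection was −2.30 (SE 0.25, adjusted P = 0.0224) for Gm4850 and −2.24 (SE 0.28, adjusted P = 0.0251) for Gm28645. They lie 7008 bases apart on the same strand. Gm6489, on the same strand 11490 bases beyond Gm28645, had 23, 32, 10, 41, 84 and 73 fragments, with the higher values in PIASy-WT (log2 fold change 1.51, adjusted P = 0.219). Gm5698 had 51, 28, 13, 53, 119 and 132 fragments and Gm5699 had 58, 19, 7, 46, 152 and 129, both also highest in the PIASy-WT libraries and neither called (adjusted P = 0.173 and 0.206). Gm9458, between them, had 77, 33, 27, 45, 58 and 43 fragments, and its groups overlapped. The protein-coding 4931428L18Rik had 204, 187, 180, 184, 349 and 313 fragments (log2 fold change 0.76, adjusted P = 0.0961). Rows of one stretch of 310 kb thus had opposite numerical directions, although only Gm4850 and Gm28645 were called. Gm5698, Gm5699, Gm6489 and Gm9458 were named after their values were seen.

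**Figure D3:**
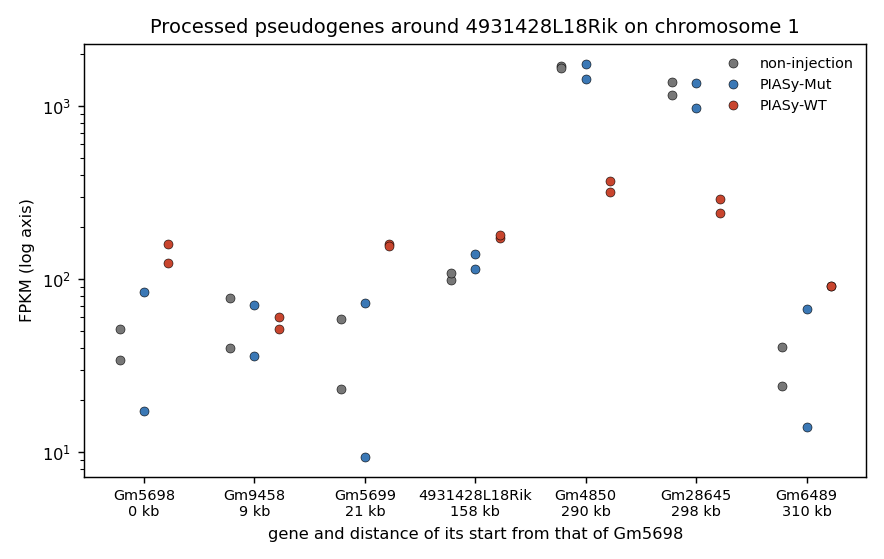
FPKM (y axis, log scale) of 6 processed pseudogenes and the protein-coding gene 4931428L18Rik on chromosome 1 in each library, ordered by distance of their start from that of Gm5698 (x axis, kb). Gm4850 and Gm28645 had lower values in both PIASy-WT libraries (red) than in the other 4, and Gm5698, Gm5699, 4931428L18Rik and Gm6489 had higher ones.

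Gm5117 copies Tgs1, which encodes the enzyme that adds the trimethylguanosine cap to small nuclear RNAs. It had 1282, 867, 1189, 591, 420 and 193 fragments, with both PIASy-WT libraries lowest. Its log2 fold change was −1.87 (SE 0.41, adjusted P = 0.051) against non-injection and −1.93 (adjusted P = 0.0482) against PIASy-Mut, so it did not reach the threshold of 2. Tgs1 had 345, 262, 312, 140, 68 and 41 fragments and fell by 2.36 on the log2 scale (adjusted P = 0.0311). The FPKM ratio of the copy to Tgs1 was 6.89 to 8.79 in the other 4 libraries and 12.9 and 9.80 in PIASy-WT.

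The other 6 of the 12 processed pseudogenes with most fragments did not move together. AU015228, a copy of the general transcription factor gene Gtf2e1, had 277, 249, 309, 142, 46 and 25 fragments and fell by 2.88 (adjusted P = 0.0251). Gm13228, the most abundant of the Hmgb1 copies, had 418, 311, 255, 284, 212 and 140 fragments (−1.05, adjusted P = 0.0703). Gm21542, with no parent found, had 263, 194, 219, 116, 142 and 99 (−0.91, adjusted P = 0.116). Gm12183, a copy of the RNA helicase gene Ddx5, had 336, 200, 213, 232, 255 and 184 (−0.25, adjusted P = 0.59). The remaining pair had higher values in PIASy-WT without passing the test. AC113031.2, which resembles the oocyte gene Oog3, had 332, 259, 235, 194, 448 and 314 fragments, and its log2 fold change was 0.36 (adjusted P = 0.36). Gm15681, a copy of the phosphatase subunit gene Ppp4r1, had 242, 248, 221, 304, 469 and 575 (1.08, adjusted P = 0.102).

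**Figure D4:**
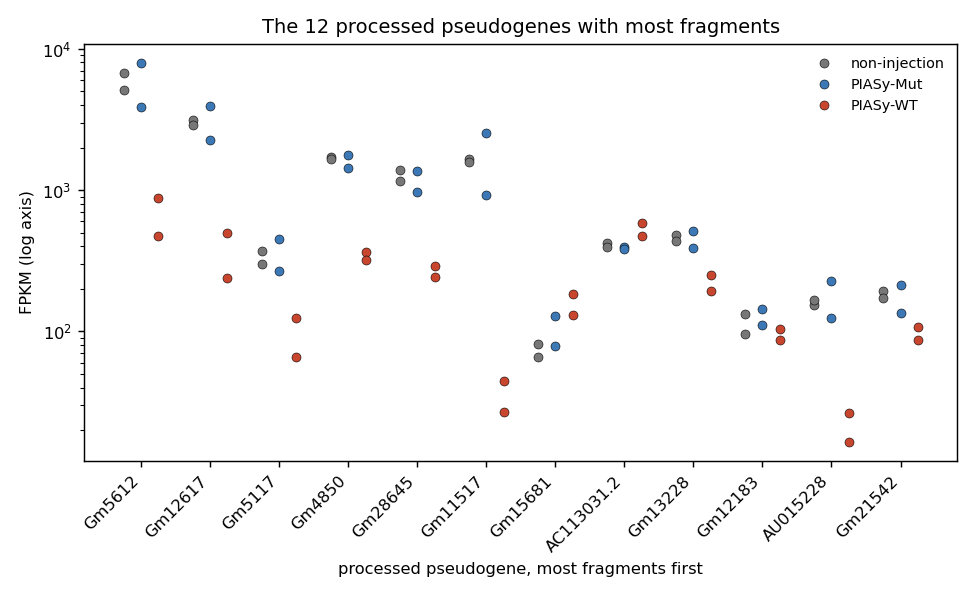
FPKM (y axis, log scale) in each of 6 libraries of the 12 processed pseudogenes with most fragments (x axis), with grey points for non-injection, blue for PIASy-Mut and red for PIASy-WT. The red points of Gm5612, Gm12617, Gm5117, Gm4850, Gm28645, Gm11517, Gm13228, AU015228 and Gm21542 lie below all others of their row, and those of Gm15681 and AC113031.2 above.

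Of the members with a mean of at least 10 fragments, 27 (16.4%) were called lower in both comparisons of PIASy-WT, beside 5.04% of genes at this level, and 1 (0.606%) was called higher in both, beside 0.0452%. The most negative of these after Gm11517 was Gm10343, a row of 348 bases without a matched sequence, which had 137, 157, 162, 58, 8 and 6 fragments (log2 fold change −4.31, adjusted P = 0.0224). Gm1995, a copy of the exonuclease gene Rexo1, had 100, 82, 121, 32, 4 and 0 (−4.30, adjusted P = 0.0292). Gm4799, a copy of Taf10, which encodes a subunit of the general transcription factor TFIID, had 100, 74, 88, 41, 6 and 5 (−3.78, adjusted P = 0.0224). Gm9176, a copy of the circadian gene Ciart, had 34, 48, 87, 43, 4 and 1 (−3.55, adjusted P = 0.0281). In each of these rows both PIASy-WT libraries were below all 4 others, and no PIASy-WT value exceeded 8 fragments.

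Gm5745, a copy of the ribosomal protein gene Rpl36, had 90, 71, 117, 44, 5 and 5 fragments (−3.89, adjusted P = 0.0224), and 92.4% of its 50-base sequences were shared with other genes. Gm3375, a copy of the proteasome subunit gene Psmb5, had 31, 22, 34, 18, 3 and 0 fragments. Gm13777, a copy of the ribosomal protein gene Rplp1, had 24, 24, 30, 16, 2 and 1. Gm9429, a copy of Oser1, had 28, 13, 43, 17, 1 and 2. These 3 rows were at the limit of 3 fragments in both PIASy-WT libraries. Their mean levels in non-injection were 8.66, 7.97 and 6.57 times the mean of that limit in PIASy-WT. These are ratios of group means and not bounds for single libraries. The 1 row at this level called higher in both comparisons was Gm5053, which resembles the deubiquitinase gene Usp17lc and had 7, 5, 5, 5, 24 and 45 fragments (log2 fold change 2.14, SE 0.43, adjusted P = 0.0444 against non-injection, and 2.03, adjusted P = 0.049 against PIASy-Mut). This call was lost in 9 of the 17 alternatives tried against non-injection and in 15 of 17 against PIASy-Mut.

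Members were first compared by the form of their names. Rows named with a Gm number made up 1300 of the 1687 members, rows named after a parent with -ps 204, other names 177 and Riken clones 6. Against non-injection, 47 (3.62%) of the Gm rows, 12 (5.88%) of the -ps rows, 7 (3.95%) of the other names and 0 of the Riken clones were called lower, beside 3.81% of all genes tested. With a mean of at least 10 fragments these were 25 of 126 Gm rows, 2 of 18 -ps rows and 4 of 21 other names, beside 6.04% of all genes at this level. The Gm rows held 1.33% and 1.22% of fragments in non-injection and 0.631% and 0.594% in PIASy-WT, and the -ps rows 0.110% and 0.121% and then 0.0808% and 0.0828%. The 6 rows with most fragments all carry Gm numbers, and without them the Gm rows in PIASy-WT were at 0.822 times non-injection in place of 0.480 times, while the -ps rows were at 0.709 times.

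The most abundant -ps rows were mostly not called. Vmn2r-ps61, a copy of a vomeronasal receptor gene that M21 types as an unprocessed pseudogene, had 261, 207, 189, 135, 21 and 19 fragments and fell by 3.46 (SE 0.22, adjusted P = 0.0224). Tdpx-ps1, a copy of the peroxiredoxin gene Prdx2, had 193, 175, 161, 110, 167 and 174 (−0.10, adjusted P = 0.821), and Mpc1-ps, a copy of a mitochondrial pyruvate carrier gene, had 84, 59, 67, 51, 51 and 52 (−0.44, adjusted P = 0.274). Zfp353-ps, which resembles the two-cell embryo gene Zfp352, had 102, 195, 68, 71, 79 and 67 (−0.93, adjusted P = 0.204). Sms-ps, a copy of the spermine synthase gene, had 54, 33, 40, 31, 71 and 44 fragments (0.40, adjusted P = 0.411). Apoo-ps had 39, 23, 24, 58, 98 and 67 (1.42, adjusted P = 0.135), Mrpl48-ps 34, 30, 33, 51, 65 and 74 (1.11, adjusted P = 0.104) and Zfp813-ps 31, 18, 13, 27, 79 and 51 (1.32, adjusted P = 0.128). Of these 8 rows, 1 was called and 3 had higher values in both PIASy-WT libraries than in non-injection.

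Classes of parent were compared next. The copies of cytosolic ribosomal protein genes, without those of 1 parent, numbered 370 and held 0.0784% and 0.0743% of fragments in the non-injection libraries, 0.0951% and 0.0637% in those of PIASy-Mut, and 0.0324% and 0.0351% in those of PIASy-WT. The 124 copies of histone and chromatin genes held 0.0494% and 0.0469% of fragments without injection, 0.0477% and 0.0496% with PIASy-Mut and 0.0332% and 0.0238% with PIASy-WT. In this class 4 (3.23%) were called lower than non-injection, near the 3.81% of all genes tested. Its share in PIASy-WT was 0.592 times that of non-injection, and 0.757 times without Gm13228. The 7 copies of two-cell and oocyte gene families held 0.0347% and 0.0422%, 0.0309% and 0.0336%, and 0.0437% and 0.0384% in the same order of groups. The last was 1.07 times non-injection, and 0.707 times without AC113031.2. Of these 0 were called lower and 1 higher, in a class too small to set against that background.

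Other classes were small, and their most abundant rows differed in the size of the change. Gm10039, a copy of the ATP synthase gene Atp5g1, had 57, 56, 87, 45, 22 and 15 fragments, and its log2 fold change of −1.60 (adjusted P = 0.0425) was under the size of 2 against non-injection but not against PIASy-Mut (−2.13, adjusted P = 0.0272). Snrpert, a copy of the spliceosomal gene Snrpe, had 81, 81, 38, 32, 34 and 28, a change of −1.37 from non-injection (adjusted P = 0.0325) and −0.55 from PIASy-Mut (adjusted P = 0.179), and was not called. Gm11843, a copy of the ubiquitin conjugating factor gene Ube2v2, had 102, 75, 108, 44, 25 and 33 (−1.58, adjusted P = 0.0703). AC164567.1, the most abundant of the copies of Gapdh, had 104, 117, 183, 40, 15 and 9 and fell by 3.11 (SE 0.62, adjusted P = 0.0433). Gm13498, a copy of the chaperone gene Hsp90ab1, had 69, 80, 59, 66, 70 and 67 (−0.11, adjusted P = 0.844), and Gm7327, a copy of the translation factor gene Eif4e, had 38, 36, 44, 30, 34 and 20 (−0.48, adjusted P = 0.324). Gm6682, a copy of the tubulin gene Tuba1c, had at most 6 fragments in any library.

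Whether copies moved with their parents was examined over pairs. For 140 members with a mean of at least 10 fragments the parent was also tested, and across these members Spearman's correlation between the fold changes of copy and parent was 0.58 against non-injection and Pearson's r was 0.56. Between PIASy-Mut and non-injection the Spearman value was 0.26. Points of one family share a parent, all points share the 6 libraries, and copies share sequence with their parents, so these values are descriptions. Spearman's correlation was 0.85 over the 57 members with an identity of at least 97% and 0.43 over the 83 below it. Reads that fit copy and parent alike are more frequent in the first set, and the part of this in the correlation was not tested.

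Of the 27 members called lower in both comparisons, 22 had a tested parent, and these belonged to 17 parents. The parent was called lower than non-injection for 9 of the 22 and in both comparisons for 5. The copy had the more negative fold change for 21 of the 22. The median was −3.16 for the copies and −1.70 for their parents, but the copies were chosen for low values in this contrast and their parents were not. Among the other 118 members with a tested parent, 8 had a parent called lower. Of all genes tested, 3.81% were called lower than non-injection, as were 5.66% of protein-coding genes with a mean of at least 10 fragments.

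For several fallen copies the parent did not pass the test. Taf10, the parent of Gm4799, had 218, 234, 182, 163, 282 and 272 fragments (0.30, adjusted P = 0.477), and the FPKM ratio of Gm4799 to Taf10 was 1.75 to 3.37 in the other 4 libraries and 0.148 and 0.128 in PIASy-WT. Gtf2e1, the parent of AU015228, had 46, 66, 42, 29, 38 and 22 (−0.77, adjusted P = 0.258), and the ratio was 18 to 35 and then 5.76 and 5.41. Ciart had 37, 39, 18, 9, 38 and 17 fragments (−0.52, adjusted P = 0.464) and Oser1 464, 301, 358, 317, 344 and 265 (−0.30, adjusted P = 0.458). Rexo1 and Gapdh had at most 14 and 37 fragments in any library, with fold changes of −0.18 and 0.20. Psmb5, on the other hand, had 23, 24, 35, 20, 4 and 1 fragments and fell by 2.91 (adjusted P = 0.0311), beside Gm3375, which shared 56.2% of its 50-base sequences. Copies that were lower in PIASy-WT thus included some with a parent that also fell and some with a parent that did not pass the test.

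**Figure D5:**
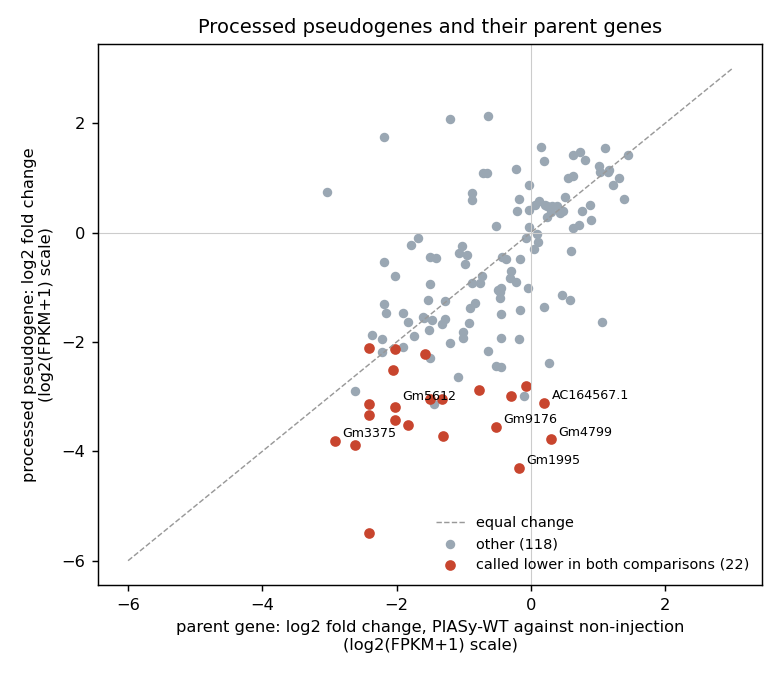
Log2 fold change of PIASy-WT against non-injection on the log2(FPKM + 1) scale for 140 processed pseudogenes with a mean of at least 10 fragments (y axis) and for their parent genes (x axis). Red points are the 22 called lower in both comparisons of PIASy-WT, of which 21 lie below the dashed line of equal change, and grey points are the other 118.

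The ratio of copy to parent was compared between libraries for single rows. For Gm6055, with 4 and 1 fragments in PIASy-WT, the ratio to Map1lc3b was 0.305 and 0.147 there and 0.594 to 0.906 in the other 4 libraries. Apoo-ps was 100% identical to Apoo over the alignment, and all of its 50-base sequences were shared. Apoo had 52, 42, 37, 104, 147 and 113 fragments, and the ratio of the 2 FPKM values was between 1.17 and 1.61 in all 6 libraries. Mrpl48-ps had 3.05 to 3.86 times the FPKM of Mrpl48 in all 6 libraries. AC113031.2 had 0.0624 to 0.0717 times that of Oog3. Mrpl48-ps shared 44.6% and AC113031.2 64.9% of their 50-base sequences with other genes, and what shared reads add to these ratios was not tested.

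A host gene, meaning another annotated gene whose span overlaps the copy, was found for 505 members (29.9%). Where several genes overlapped a copy, the one with most fragments was taken. It lay on the same strand for 205 members and on the opposite strand for 300. Only 39 members shared exon bases with another gene. The host was also tested for 340 members. Of these 9 members and 18 hosts were called lower than non-injection by limma, beside 3.81% of all genes tested, and 0 pairs had both calls, which says little with so few calls. At an unadjusted P under 0.05, 44 members and 57 hosts were lower and 6 pairs had both, and voom, which could be run on 23 pairs, called 4 members and 4 hosts and 0 pairs with both. Spearman's correlation between member and host over the 340 pairs was 0.04, and over the 22 of them whose member had a mean of at least 10 fragments it was −0.34. Since a count of reads may not have used the strand, reads of a copy and of an overlapping exon cannot be told apart for the 39 rows.

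Gm11517 lies in an intron of Cbx1, which encodes the heterochromatin protein HP1 beta, on the opposite strand. Cbx1 had 72 and 66 fragments in the non-injection libraries, 53 and 80 in those of PIASy-Mut, and 246 and 157 in those of PIASy-WT (log2 fold change 1.45, adjusted P = 0.064). Its values were higher in both PIASy-WT libraries than in the other 4, opposite to Gm11517. Snrpert lies in an intron of Rnf24 on the same strand, and Rnf24 had 93, 58, 83, 109, 199 and 93 fragments (0.83, adjusted P = 0.239). Cdh8, which holds Gm15681 in an intron on the same strand, had between 1 and 5 fragments and was below the filter, so it was not tested. Neither Cbx1 nor Rnf24 was called.

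By position, members outside other genes held 1.31% and 1.23% of fragments in the non-injection libraries, 1.52% and 1.10% in those of PIASy-Mut, and 0.621% and 0.563% in those of PIASy-WT. Members in an intron on the opposite strand only held 0.167% and 0.159%, 0.213% and 0.139%, and 0.0979% and 0.103%. Members in an intron on the same strand held 0.0752% and 0.0742%, 0.0736% and 0.0794%, and 0.0776% and 0.0905%, with PIASy-WT at 1.13 times non-injection. Both intronic values rested on 1 row each. Without Gm15681, which was not called, the same-strand class was at 0.754 times non-injection, and without Gm11517 the opposite-strand class went from 0.616 to 0.985 times. Without Gm5612 the members outside genes were at 0.542 times. In the same-strand class 3 of 198 rows (1.52%) were called lower, as were 51 of 1182 (4.31%) outside genes and 9 of 268 (3.36%) on the opposite strand, beside 3.81% of all genes tested. With a mean of at least 10 fragments the counts were 0 of 10, 27 of 134 and 3 of 15, beside 6.04% of all genes at this level. Of the 39 members that share exon bases with another gene, 3 (7.69%) were called lower, and 1 of 6 at a mean of at least 10 fragments. Their share in PIASy-WT was 0.983 times non-injection, and 0.778 times without the row with most fragments. The difference between these classes was not tested.

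Members with a mean of at least 10 fragments that were called lower than non-injection lay on many chromosomes, with at most 3 on any one of them. Against PIASy-Mut the most was 5, on chromosome 11. A tested gene within 50 kb was found for 25 of the 31 called lower than non-injection and for 84 of the other 134. Of those, 9 (36.0%) and 11 (13.1%) had a neighbour called lower, and 12 of 85 (14.1%) and 21 of 228 (9.21%) of the neighbours were called lower, beside 3.81% of all genes tested and 6.04% of those with a mean of at least 10 fragments. The difference between the 2 sets was not tested. Gm4850 and Gm28645 are each other's neighbour. Gm9176 lies 389 bases from the ribosomal protein gene Rpl41, on the same strand, and Rpl41 fell by 3.72 (adjusted P = 0.0224). Gm12617 lies 34838 bases from Gm12619, an unprocessed pseudogene that was called lower. Gm12622, itself called lower, lies within 50 kb of Gm12621, Gm12627 and Gm12628, unprocessed pseudogenes that were also called lower. Several of the 12 lower neighbours thus come from local groups of pseudogenes. AC164567.1 lies 16542 bases from Spic, which fell by 3.65 (adjusted P = 0.0318).

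Open reading frames were counted in the annotated sequences, and the differences between the sets were not tested. The longest frame covered at least 90% of the row in 63 of 159 members (39.6%) with a mean of at least 10 fragments and in 443 of 1496 (29.6%) of those below it. It did so in 16 of 26 (61.5%) of those called lower in both comparisons with a mean of at least 10 fragments. The frame of Gm12617 covered 99.2% of its length, and the median over the last set was 99.0%. Identity to the parent was similar at both levels, with medians of 95.4% and 95.5%, while the median share of 50-base sequences found in other genes was 33.7% and 23.7%. These are descriptions of the annotated sequences, and translation was not measured.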

How the data were processed

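Two-cell embryos at 28 hpi were measured in 6 libraries, 2 for each of 3 groups taken from the sample labels. Reads were trimmed with Trim Galore, aligned to mm10 with STAR and counted as unique reads per gene with featureCounts by the authors, who deposited FPKM values. The annotation release and the use of strand are not given in the sources used here. After each FPKM was multiplied by gene length and scaled by what 1 fragment is worth, 100% of values came out whole within 0.01, so fragments could be recovered. Depth limits short rows, for which a few fragments set the FPKM.

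The main test was limma 3.58.1 under R 4.3.3 (lmFit, then eBayes with trend) on log2(FPKM + 1), with 1 term per group and no block, and P-values were adjusted by Benjamini-Hochberg. A gene entered when at least 2 libraries reached an FPKM of 1, which left 16100. Residual degrees of freedom were 3 and prior ones 3.12. Fold changes are on the log2(FPKM + 1) scale, which understates changes of low genes. The procedure was tested on simulated data. Parents were found with blastn 2.17.0 on the plus strand against GENCODE M21 protein-coding transcripts, leaving out genes that overlap the copy. Tables and figures were made with Python 3.11.15, pandas 2.3.3, numpy 2.4.6 and matplotlib 3.10.9.

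The members and lists were chosen with earlier results of these data known. Rows were named by rule: the 12 with most fragments, the 10 most negative and up to 5 most positive called in both comparisons of PIASy-WT with a mean of at least 10 fragments and no overlap of PIASy-WT with the other 4 libraries, the 8 -ps rows with most fragments, the first row of each class of parent with at least 5 members, and their parents and hosts. Gm6054, Gm5698, Gm5699, Gm6489, Gm9458 and Gm12622 and the neighbours were named after their values were seen. A parent gene, and the results that need it, are not reported here.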

Additional observations from a re-analysis of the deposited data

How the results depend on the processing

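The direction of the lower share held under every alternative tried, but its size rested on a few rows. The log2 ratio of the share in PIASy-WT to that in non-injection was −0.94, and it was −1.03 for members with an FPKM of at least 5, −1.13 for members with under 50% of 50-base sequences shared, −0.76 without Gm5612, −0.75 without the copies of Map1lc3b and −0.33 without the 6 rows with most fragments. Against PIASy-Mut it was −0.99, and −0.81 and −0.42 under the last 2 of these, which were chosen after seeing the data. Leaving out each library gave −0.98 to −0.89, −1.20 to −0.75 against PIASy-Mut and −0.19 to 0.26 between PIASy-Mut and non-injection.

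Counts of called members moved with the model, and the cause was not tested except where fewer genes or libraries entered. Against non-injection, the 66 lower and 14 higher members became 32 and 1 with a pseudocount of 5, 14 and 0 with no filter, 38 and 8 without the trend, 41 and 3 with voom on recovered fragments, 101 and 28 with only the 4 libraries compared and 31 and 1 at a mean of at least 10 fragments. The higher count was also 8 with a pseudocount of 0.1 and 7 with an FPKM minimum of 5. Against PIASy-Mut, the 67 lower and 15 higher became 28 and 0 with a pseudocount of 5, 26 and 2 with no filter, 44 and 9 with quantile normalization, 39 and 4 with voom, 0 and 0 with only the 4 libraries compared and 33 and 1 at a mean of at least 10 fragments, and the higher count was 7 with an FPKM minimum of 5. Leaving out each library gave 0 to 98 lower and 0 to 28 higher against non-injection, and 0 to 117 and 0 to 47 against PIASy-Mut. The count was 0 in both comparisons without either non-injection or either PIASy-WT library, and 0 against PIASy-Mut without PIASy-Mut replicate 1. Of the 41 members called lower than non-injection by voom, 36 were among the 66. The fit held 227 members with voom and 559 with an FPKM minimum of 5, in place of 1687. With only the 4 libraries compared it held 1300 against non-injection and 1248 against PIASy-Mut. Counts from these settings are thus not out of the same number of members. Shares over all genes are not given beside them here.

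Deviations of same-numbered libraries, taken over all genes tested, correlated at 0.004 to 0.085, and the main test used no block. Many of these genes had few fragments, so the values cannot decide whether same-numbered libraries shared a batch. The share of fragments on members was higher in replicate 1 than in replicate 2 in every group. With the replicate block, 58 members were lower and 9 higher against non-injection and 64 and 8 against PIASy-Mut. For the 37 members named by rule, 948 alternative values kept their side of the threshold, 262 lost it, 44 gained it and 0 reversed. An adjusted P of 0.05 was passed in the results given above and missed in 10 of 17 alternatives for AC164567.1 against non-injection and 11 against PIASy-Mut, in 9 and 15 for Gm5053, in 9 for Gm10039 against non-injection and in 13 for Gm5117 against PIASy-Mut. These rows missed it in most alternatives. It was also missed in 6 and 8 for Gm5612 and Gm1995, in 7 and 8 for Gm3375, and in 5 and 7 for Gm12617 and Gm28645. Every other called row named by rule missed it in some. Leaving out the row with most fragments, chosen after seeing the data, moved the share by more than the spread between replicates in 19 of 23 classes by name, parent or position. In every library 927 members had at most 3 fragments, and the part of depth in this was not tested.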
